A study of Mus musculus with 9 samples.

Results

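The mRNAs of 45 heparan sulfate genes, comprising the enzymes, precursor suppliers and editing enzymes of heparan sulfate synthesis and the core proteins that carry its chains, were examined in mouse liver. They were picked by symbol for their place in the pathway, without *Sdc1*, and all 45 were found among the 51912 genes listed. Livers were taken after a fast from 9 mice of the genotype *Apoe-/-Ndst1 f/f Alb-Cre+*, bred to a C57BL/6 background. For 8 weeks, 5 mice had received an antisense oligonucleotide (ASO) against apoC-III at 50 mg/kg/week and 4 had received a control ASO at the same dose. ApoC-III is an apolipoprotein of triglyceride-rich lipoproteins that slows their clearance. In mice of this genotype, however, the study found lower plasma triglycerides with the apoC-III ASO but no faster hepatic clearance of these particles. Both groups lacked apoE in the whole body and carried floxed *Ndst1* alleles with a Cre recombinase under the albumin promoter, which is active in hepatocytes, so *Ndst1* stays intact in liver cells that never expressed the Cre. No mice with intact *Ndst1* were sequenced, so the comparison concerns the ASO only. Age and sex are not stated beside the RNA sequencing, and neither is the diet.

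Heparan sulfate is a long sugar chain built in the Golgi on a serine of a core protein, beginning with a short linker that starts with xylose. The exostosins extend the chain, N-deacetylase/N-sulfotransferases replace acetyl by sulfate groups on glucosamine, and an epimerase and the O-sulfotransferases then modify the stretches that were N-sulfated. In hepatocytes the chains on syndecan-1 bind apolipoproteins of triglyceride-rich lipoproteins and help to clear them, and this binding depends on N-sulfation.

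Values were deposited as TPM, the transcripts of a gene per 1000000 transcripts, a length-corrected share of each library, so they allow levels to be compared between genes but keep no sequencing depth, and no counting interval can be given. The 7SL RNAs took 64.0% to 83.6% of the TPM, and the nuclear protein-coding share was 1.94% to 8.64%, so that 7 of the 45 genes had a mean of at least 1 TPM. Nuclear protein-coding genes were therefore scaled to sum to 1000000 in each liver and divided by median-of-ratios factors, which set the typical gene of each liver to the same level. All levels below are on this scale, called rescaled TPM. Control ASO replicate 4 stood apart from the other livers. Its median-of-ratios factor was 0.491, against 0.919 to 1.42 in the others. Dividing by it raised the values of this liver the most, so its place among the livers can depend on this step. It also had the lowest protein-coding share (1.94%), the fewest genes above 0 (17992, against 18344 to 20928) and the highest summed level of 4 erythroid genes (2044). ApoC-III ASO replicate 4 also had a high sum of 932, and the other 7 livers had 49.7 to 197. Hepatocyte markers were abundant in each library, with summed levels of 10 genes between 27124 and 57651. The targeted gene, *Apoc3*, averaged 456 ± 113 (SD, n = 5) with the apoC-III ASO and 3620 ± 499 (SD, n = 4) with the control ASO, and no apoC-III ASO liver exceeded 630 while no control liver was under 3207. This 87.4% lower mean had the smallest p that 5 livers against 4 allow (exact two-sided permutation test, p = 0.0159). *Apoe* transcripts were still listed, at a mean of 36.5 in apoC-III ASO and 51.4 in control ASO livers (log2 fold change -0.43, SE 0.33).

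Levels of the 45 genes spanned a wide range, from *Sdc4* at a mean of 339 to *Hs3st2* and *Gpc5*, which were listed at 0 in all 9 livers. *Sdc4*, *Col18a1* and *Ugdh* together made up 69.9% of the summed mean level. The mean was at least 100 for 4 genes and at least 10 for 10 genes. It was at least 1 for 30 genes, which were tested, and under 1 for the other 15. The tested gene with the lowest mean was *Gpc1* (1.24), and the untested gene with the highest mean was *Hpse* (0.925). Above 0 in every liver were 32 of the 45.

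**Figure D1:**
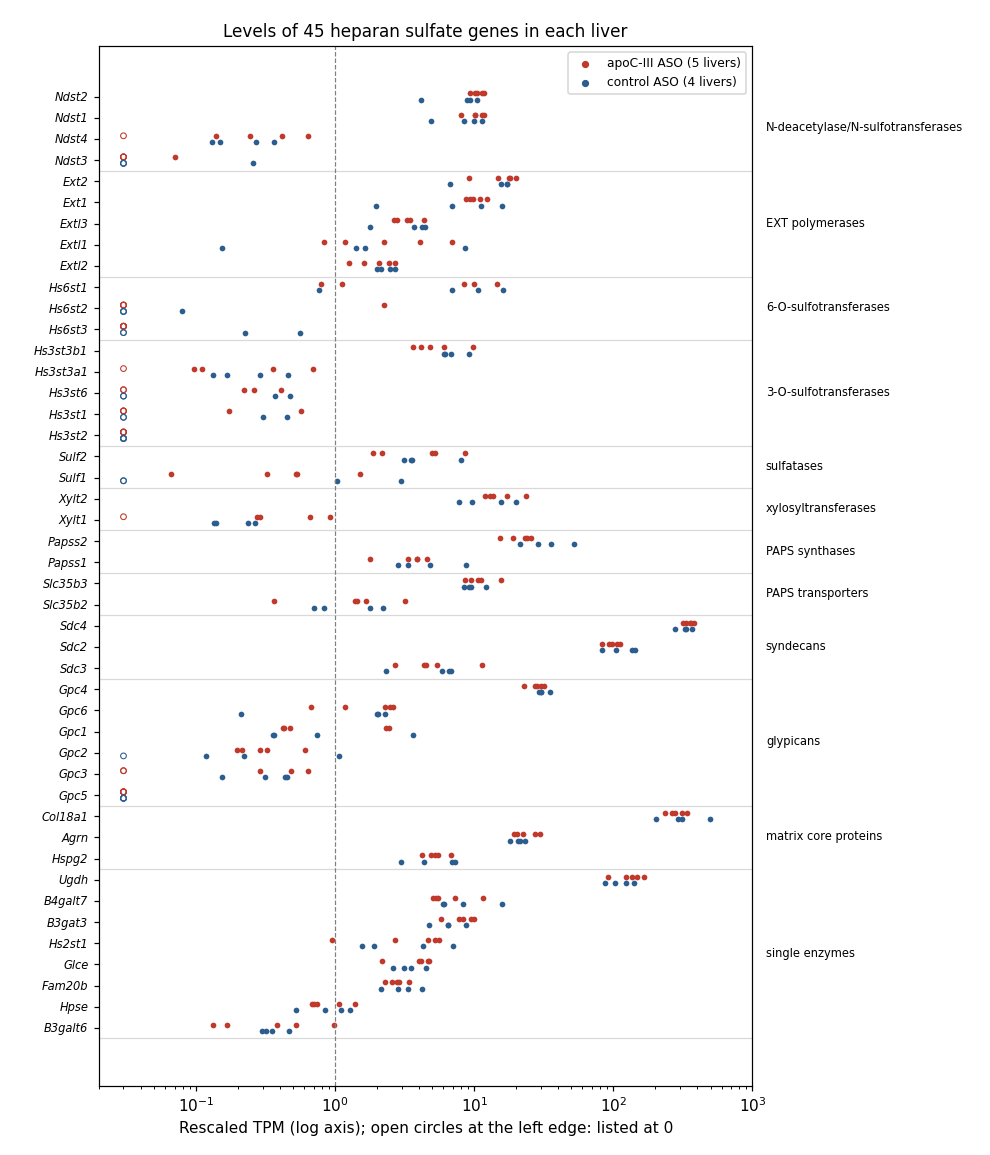
Rescaled TPM (log axis) of the 45 genes in each of the 5 apoC-III ASO livers (red) and 4 control ASO livers (blue), grouped by family, with open circles for values listed at 0 and a dashed line at 1. In most families a single member lies well above the rest, whereas *Ndst1* and *Ndst2* lie together, and *Hs3st2* and *Gpc5* are at 0 throughout.

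The order of the isoenzymes within families was tested on the log2 ratio of 2 members within a liver, which does not depend on the scaling apart from a pseudocount of 1, for all 43 pairs in which at least 1 member had a mean of at least 1. Among the 22 pairs with both members at a mean of at least 1 the ratio passed the threshold in 18 (exact two-sided sign-flip permutation test over 9 livers, Benjamini-Hochberg adjusted over the 43 pairs), and in 14 of these the order was the same in all 9 livers. The other 21 pairs entered through their higher member alone, with a lower member under a mean of 1, and in 4 of them that member was listed at 0 in all livers, so the order was set by the choice of pairs. They brought the count to 38 of 43, but their order is given below as values without a test. The smallest p that 9 livers allow is 0.00391, which becomes 0.00542 after adjustment. The 5 pairs that did not pass were *Ndst2* and *Ndst1*, *Extl1* and *Extl2*, *Extl3* and *Extl1*, *Gpc1* and *Gpc3*, and *Gpc6* and *Gpc1*.

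None of the 30 tested genes was called different between apoC-III ASO and control ASO livers. Differential expression was tested with limma-trend on log2(rescaled TPM + 1), in the 11991 genes with a mean of at least 1, and a call needed an adjusted p (Benjamini-Hochberg) below 0.05 together with a change of more than 1.5-fold. The pseudocount makes the fold change of low genes too small. Among all genes tested 0.0167% were called, namely *Apoc3* and *Anpep*, both lower, and 0.0% were called higher. The study, testing read counts with DESeq2, reported more genes than this in both directions at the same thresholds. Few calls here thus do not show that few genes changed. *Anpep* was not called when any liver except control ASO replicate 2 or 4 was left out. At an unadjusted p under 0.05 limma-trend gave 1 of the 30 genes (3.33%), against 5.55% of all genes. Of the 30, 18 had a higher mean log2 level in apoC-III ASO livers and 12 had a lower one, beside 5980 higher and 6011 lower of all genes. The split became 29 to 1 without the median-of-ratios factors, beside 10600 to 1451 of all genes. It was 6 to 1 among the 7 genes testable in TPM as deposited, beside 3493 to 1443. The median log2 fold change of the 30 genes was 0.0572, beside -0.00125 for all genes, and without the factors it was 0.35 beside 0.41. The log2 fold changes ran from -0.61 (*Papss2*) to 0.42 (*Ext1*), with standard errors of 0.18 to 0.77. The ranges of the 2 groups overlapped for all 30 genes. Of all genes 1.83% had groups without overlap, a share too low to make this a contrast. Control ASO replicate 4 held the lowest value for 10 of the 30 genes and the highest for 6, and without this liver the split was 13 higher to 17 lower with a median of -0.0821.

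**Figure D2:**
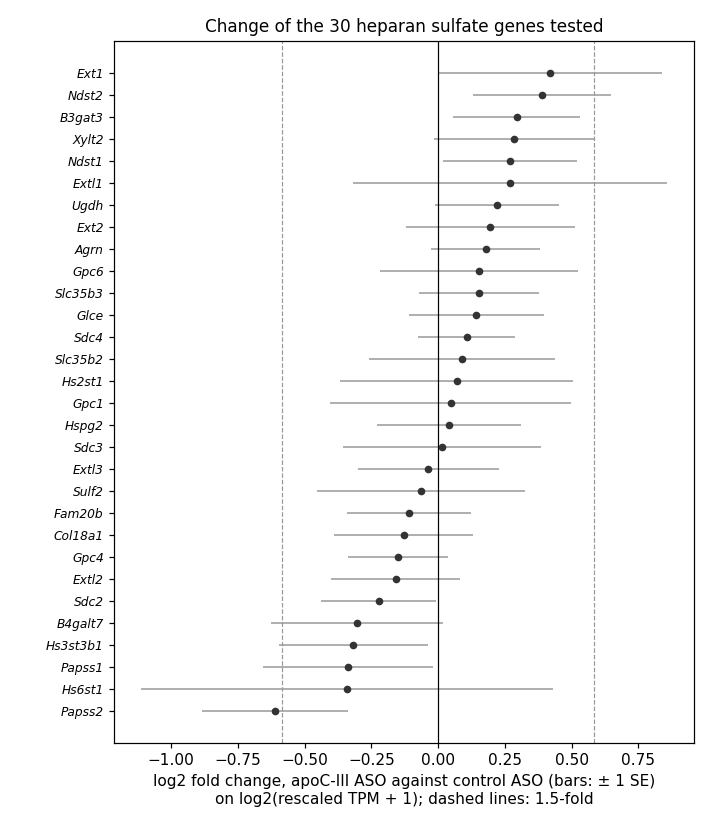
Log2 fold change (apoC-III ASO against control ASO, log2(rescaled TPM + 1) scale) of the 30 tested heparan sulfate genes from limma-trend, with bars of 1 SE and dashed lines at 1.5-fold. All points but *Papss2* lie between the dashed lines, and the bar of *Hs6st1* (SE 0.77) is the longest.

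The linker is started by the xylosyltransferases, and *Xylt2* was the form found in liver. *Xylt2* (ENSMUSG00000020868, chromosome 11 of GRCm38, 94663851 to 94677515) had 13.0, 17.1, 11.9, 13.6 and 23.5 rescaled TPM in apoC-III ASO replicates 1 to 5 and 19.9, 7.78, 15.7 and 9.66 in control ASO replicates 1 to 4. The groups overlapped throughout, and the log2 fold change was 0.28 (SE 0.30). *Xylt1* reached at most 0.921 in any liver and was listed at 0 in apoC-III ASO replicate 3. *Xylt2* was thus higher in 9 of 9 livers, with a mean log2 ratio of 3.53 ± 0.35 (SD). The galactosyltransferase of the next step, *B4galt7*, averaged 7.86, and *B3gat3*, which adds the glucuronic acid that completes the linker, averaged 7.53. *Fam20b*, the kinase that phosphorylates the xylose, averaged 2.93, with a highest value 1.97 times the lowest. *B3galt6*, the other galactosyltransferase, was the low member of the group at 0.131 to 0.976.

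The chain is then polymerised by the complex of EXT1 and EXT2, both of which are needed. *Ext2* (ENSMUSG00000027198, chromosome 2, 93661028 to 93822568) had 17.7, 14.7, 20.01, 9.09 and 18.1 in the apoC-III ASO livers and 17.1, 17.1, 15.7 and 6.70 in the control ASO livers. *Ext1* (ENSMUSG00000061731, chromosome 15, 53064038 to 53346159) had 9.31, 12.4, 9.83, 8.70 and 11.02 against 11.3, 15.9, 6.93 and 1.98. Control ASO replicate 4 was the lowest liver for both, and apoC-III ASO replicate 4 was the lowest of its group for both. *Ext2* exceeded *Ext1* in 9 of 9 livers, though by very different amounts, with log2 ratios from 0.0573 to 1.37 (adjusted p = 0.00542, exact sign-flip test). The log2 fold change was 0.20 (SE 0.31) for *Ext2* and 0.42 (SE 0.42) for *Ext1*, and without control ASO replicate 4 these became -0.10 and -0.0748. The EXT-like genes had lower means. In control ASO replicate 4, however, *Extl1* (8.61) was above both *Ext2* (6.70) and *Ext1* (1.98), and *Extl2* (1.996) was barely above *Ext1* (1.978). *Extl3*, which adds the N-acetylglucosamine that commits a linker to heparan sulfate, averaged 3.41, and *Extl2* averaged 2.16. *Extl1* was the most uneven of the family, from 0.152 in control ASO replicate 2 to 8.61 in control ASO replicate 4, and its order relative to *Extl2* and *Extl3* did not pass the threshold.

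N-deacetylase/N-sulfotransferase mRNA was made up of *Ndst1* and *Ndst2* in nearly equal parts. *Ndst1* (ENSMUSG00000054008) had 11.3, 10.2, 11.7, 10.04 and 8.001 in the apoC-III ASO livers and 11.3, 8.45, 9.88 and 4.86 in the control ASO livers. *Ndst2* (ENSMUSG00000039308, chromosome 14, 20723730 to 20734562) had 11.4, 11.8, 10.4, 10.04 and 9.27 against 10.48, 8.93, 9.37 and 4.13. Both were lowest in control ASO replicate 4, and they were close to each other in each of the 9 livers. The mean log2 ratio of *Ndst2* to *Ndst1* was -0.00614 ± 0.139 (SD, n = 9), ranging from -0.191 to 0.193, with *Ndst2* ahead in 4 of 9 livers (exact sign-flip test, p = 0.941). *Ndst2* made up 45.3% to 53.7% of the summed family. The ratio was 0.118 higher on the log2 scale in apoC-III ASO than in control ASO livers (exact permutation test, p = 0.206). The log2 fold changes were 0.27 (SE 0.25) for *Ndst1* and 0.39 (SE 0.26) for *Ndst2*, and neither passed the threshold in any of 23 alternative settings. Without control ASO replicate 4 they were 0.0519 and 0.13. The *Ndst1* value cannot check the deletion, since all 9 livers carry it, the values are per gene and not per exon, and cells that never expressed the Cre keep the intact alleles. In whole liver, fewer cells of a type and less RNA per cell cannot be told apart. *Ndst3* was above 0 in 2 livers, at 0.0706 in apoC-III ASO replicate 4 and 0.255 in control ASO replicate 2, and *Ndst4*, 1713 kb from it on chromosome 3, ranged from 0 to 0.633.

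**Figure D3:**
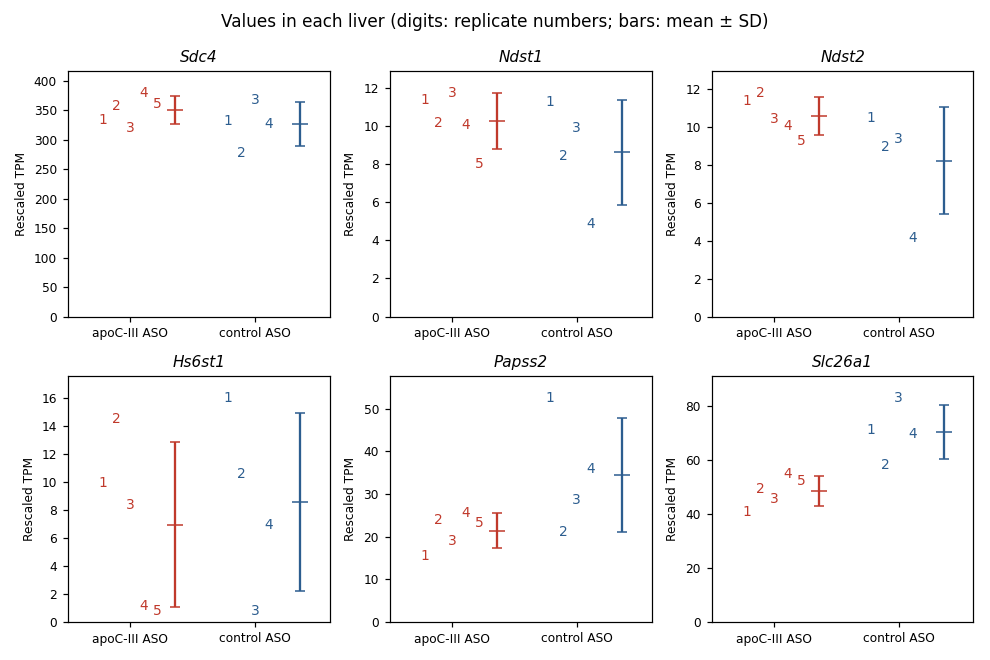
Rescaled TPM of 6 genes in each liver, with digits giving the replicate number in the apoC-III ASO (red) and control ASO (blue) groups and bars giving the mean ± SD (n = 5 and n = 4). *Sdc4* varies least, *Ndst1* and *Ndst2* share their lowest liver, and *Hs6st1* is near 1 in 3 livers. *Slc26a1*, a sulfate transporter outside the 45 genes, is the 1 panel without overlap between the groups, which holds on this scale but not without the median-of-ratios factors.

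After N-sulfation, *Glce* turns glucuronic into iduronic acid and *Hs2st1* sulfates it. *Glce* ranged from 2.18 to 4.73, and *Hs2st1*, at a similar mean of 3.75, ranged from 0.953 in apoC-III ASO replicate 3 to 7.01 in control ASO replicate 3. *Hs6st1*, the main 6-O-sulfotransferase here, was the least even of the 30 tested genes on the log2 scale. *Hs6st1* (ENSMUSG00000045216, chromosome 1, 36068400 to 36106446) had 9.93, 14.5, 8.36, 1.13 and 0.795 in the apoC-III ASO livers and 15.99, 10.6, 0.762 and 6.95 in the control ASO livers. Values near 1, in apoC-III ASO replicates 4 and 5 and control ASO replicate 3, stood against 6 values of 6.95 or more, so the low livers came from both groups. The highest value was 21.0 times the lowest, and the SD of its log2 level over the 9 livers exceeded that of 98.1% of all genes tested. The log2 fold change of -0.34 (SE 0.77) turned positive without the median-of-ratios factors, and likewise without apoC-III ASO replicate 4 or 5 (0.0165 and 0.0801) or control ASO replicate 1 (0.0694). The gene shares 8.75% of its 31-base words with other genes, mostly with an antisense gene that was itself listed at 0 in all livers. *Hs6st2* was at 2.25 in apoC-III ASO replicate 5, where *Hs6st1* was low, at 0.0795 in control ASO replicate 1, and at 0 in the other 7 livers. *Hs6st3* was above 0 only in control ASO replicates 1 (0.224) and 4 (0.554).

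*Hs3st3b1* was the one 3-O-sulfotransferase, an enzyme class that adds the rarest sulfate group, with more than trace levels. *Hs3st3b1* (ENSMUSG00000070407) had 3.61, 4.79, 4.11, 9.85 and 6.02 in the apoC-III ASO livers and 9.16, 6.75, 6.13 and 6.05 in the control ASO livers. It held 82.7% to 97.7% of the summed family in each liver. *Hs3st1*, *Hs3st3a1* and *Hs3st6* averaged 0.166, 0.256 and 0.193, and *Hs3st2* was listed at 0. Its log2 fold change was -0.32 (SE 0.28), and 0.0724 without the median-of-ratios factors. Its neighbour *Hs3st3a1* (ENSMUSG00000047759), 513 kb away on chromosome 11, ranged from 0 to 0.692. The coding sequences of these neighbours are 91.0% identical over 1079 aligned bases and share an identical run of 401 bases in exon 2, so reads from this run cannot be assigned to either gene. Of the 31-base words of *Hs3st3a1* 44.5% occur in other genes, most of all in *F930015N05Rik* (32.4%), so its low value is uncertain. *Hs3st3b1* shares 9.81%, with *Hs3st3a1*. The coding strand at the 5′ edge of the identical run is shown because it is where the genes become indistinguishable, with the last mismatch in capitals and 60 bases of the run at the end, from chr11:64520250-64520369 (plus strand) and chr11:63889574-63889693 (minus strand) of GRCm38.
Hs3st3a1: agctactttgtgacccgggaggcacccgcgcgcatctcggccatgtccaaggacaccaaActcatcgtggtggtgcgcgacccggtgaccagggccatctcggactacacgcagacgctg
Hs3st3b1: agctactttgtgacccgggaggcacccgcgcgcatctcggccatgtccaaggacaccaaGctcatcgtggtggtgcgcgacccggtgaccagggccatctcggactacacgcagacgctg

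The finished chain is edited by the endosulfatases, which remove 6-O-sulfate, and by heparanase, which cuts it. *Sulf2* had 5.20, 2.16, 1.86, 4.99 and 8.60 in the apoC-III ASO livers and 7.99, 3.48, 3.58 and 3.15 in the control ASO livers, and it was above *Sulf1* in 9 of 9 livers (mean log2 ratio 1.69 ± 0.93 SD). Control ASO replicate 1 held more than the other control livers, and the log2 fold change of -0.06 (SE 0.39) was positive without this liver (0.19), without apoC-III ASO replicate 2 or 3, and without the median-of-ratios factors. *Sulf1* ranged from 0 in control ASO replicates 1 and 4 to 2.99 in control ASO replicate 3, where it came nearest to *Sulf2*. *Hpse* was even and low, at 0.522 to 1.38.

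Of the genes that supply precursors, *Ugdh* was the most abundant and *Papss2* had the largest change. *Ugdh* (ENSMUSG00000029201, chromosome 5, 65413221 to 65435949), which makes UDP-glucuronic acid for these chains and for glucuronidation, had 148, 122, 165, 137 and 92.0 in the apoC-III ASO livers and 142, 103, 86.9 and 124 in the control ASO livers (log2 fold change 0.22, SE 0.23). *Papss2* (ENSMUSG00000024899, chromosome 19, 32595790 to 32667187), a synthase of the sulfate donor PAPS, had 15.3, 23.8, 19.1, 25.5 and 23.2 against 52.4, 21.2, 28.6 and 35.9. Each control liver except replicate 2 was above all 5 apoC-III ASO livers, and replicate 1 was highest by far. Without the median-of-ratios factors only control ASO replicate 1 was above all 5, and control ASO replicate 4 was the lowest liver. The log2 fold change was -0.61 (SE 0.27) with an adjusted p of 0.877 (limma-trend, Benjamini-Hochberg), and the exact permutation test gave p = 0.0635. The log2 fold change was -0.39 without control ASO replicate 1, -0.28 in TPM as deposited and -0.15 without the median-of-ratios factors. Over 25 alternative settings it was negative, with adjusted p from 0.649 to 0.9997, so it did not pass in any. The unadjusted p of 0.0452 (limma-trend) rose above 0.05 when any liver except apoC-III ASO replicate 4 or control ASO replicate 2 was left out. *Papss1*, the other synthase, ranged from 1.78 to 8.70, and *Papss2* exceeded it in 9 of 9 livers (mean log2 ratio 2.46 ± 0.79 SD, adjusted p = 0.00542, exact sign-flip test). PAPS enters the Golgi through transporters, of which *Slc35b3* had 15.7, 11.2, 8.53, 10.7 and 9.52 in the apoC-III ASO livers and 9.10, 12.2, 8.43 and 9.48 in the control ASO livers. *Slc35b2* was lower in each liver, at 0.364 to 3.16.

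The core proteins divide into membrane-spanning syndecans, lipid-anchored glypicans and secreted proteins of the matrix. *Sdc4* (ENSMUSG00000017009, chromosome 2, 164424247 to 164443887) was the most abundant of the 45 genes and also the steadiest. It had 334, 357, 319, 379 and 362 in the apoC-III ASO livers and 333, 277, 368 and 327 in the control ASO livers, and 0.35% of all tested genes had a smaller SD of the log2 level. The log2 fold change was 0.11 (SE 0.18). *Sdc2* had 83.4, 106, 97.8, 92.3 and 112 against 105, 83.1, 136 and 144, and *Sdc3* lay between 2.31 and 11.3. The log2 ratio of *Sdc4* to *Sdc2* was 1.83 in apoC-III ASO and 1.497 in control ASO livers, and this difference of 0.329 had the smallest p of the 43 pairs (exact permutation test, p = 0.0635, adjusted p = 0.991). No isoenzyme ratio differed between the groups past the threshold (0 of 43), and none had an unadjusted p under 0.05 in the exact permutation test. The smallest p that 5 livers against 4 allow in this test is 0.0159. After adjustment over 43 pairs a single ratio at this p could not pass, so 0 of 43 does not show that the ratios were unchanged. *Sdc1*, the hepatocyte syndecan left out of the 45, averaged 87.6 ± 38.0 (SD, n = 5) against 114 ± 24.7 (SD, n = 4), with a log2 fold change of -0.44 (SE 0.30).

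Among the glypicans *Gpc4* predominated. *Gpc4* (ENSMUSG00000031119, chromosome X, 52053021 to 52165252) had 30.2, 27.4, 31.6, 28.4 and 22.6 in the apoC-III ASO livers and 29.99, 29.2, 30.1 and 35.2 in the control ASO livers. It was the second steadiest of the 30 genes, with 1.15% of all tested genes having a smaller SD, and its log2 fold change was -0.15 (SE 0.19) and turned positive without the median-of-ratios factors and in TPM as deposited. *Gpc3*, which lies 107 kb from it and is known as a fetal liver gene that returns in liver cancer, averaged 0.307 and was listed at 0 in 2 livers. *Gpc4* exceeded *Gpc3* in 9 of 9 livers (mean log2 ratio 4.55 ± 0.22 SD). *Gpc6* ranged from 0.209 to 2.61, while *Gpc5*, 400 kb from it on chromosome 14, was at 0. *Gpc1* was over 2 in apoC-III ASO replicates 4 and 5 and in control ASO replicate 4 (2.43, 2.33 and 3.64) and under 1 in the other livers. It shares 18.4% of its 31-base words with *Ankmy1*, and *Gpc2*, at 0 to 1.07, shares 52.0% with other genes, so both values are uncertain.

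Of the matrix core proteins, *Col18a1*, the collagen from which endostatin is cut, was far above the others. *Col18a1* (ENSMUSG00000001435, chromosome 10, 77052178 to 77166548) had 262, 236, 314, 279 and 340 in the apoC-III ASO livers and 293, 203, 313 and 499 in the control ASO livers. Control ASO replicates 2 and 4 were the lowest and the highest of all 9 livers. Without the median-of-ratios factors control ASO replicate 4 was instead below each apoC-III ASO liver. The log2 fold change was -0.13 (SE 0.26), with a positive sign in TPM as deposited, without the median-of-ratios factors, with quantile normalization and without control ASO replicate 4 (0.0999). *Agrn* was even, at 18.0 to 29.6, and *Hspg2*, which encodes perlecan, lay between 2.96 and 7.28. The order *Col18a1*, *Agrn*, *Hspg2* was found in 9 of 9 livers, each pair at an adjusted p of 0.00542 (exact sign-flip test).

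In 4 further lists of genes of the pathway and its neighbours, 0 passed the adjusted threshold (limma-trend). Of 9 other heparan sulfate genes, including part-time carriers of the chain, 7 were tested, 4 being higher and 3 lower, with none at an unadjusted p under 0.05. Of 10 lysosomal genes that break the chain down, 9 were tested, 6 higher and 3 lower. *Ids*, the iduronate-2-sulfatase, had an unadjusted p of 0.0419 (limma-trend) with a log2 fold change of 0.65 (SE 0.28) at levels of 0.497 to 2.61. Of 16 genes of the chondroitin and dermatan sulfate branch 7 were tested, 5 higher and 2 lower, with none at an unadjusted p under 0.05. All 11 genes of sugar and sulfate supply were tested, 4 higher and 7 lower, and 2 of the 11 had an unadjusted p under 0.05, beside 5.55% of all genes. *Slc26a1*, an anion transporter that takes sulfate into hepatocytes, had 40.7, 49.1, 45.5, 54.7 and 52.0 in the apoC-III ASO livers and 70.9, 58.2, 82.8 and 69.5 in the control ASO livers. Its groups did not overlap, as those of 1.83% of all genes did not, and the log2 fold change of -0.53 (SE 0.19) had an adjusted p of 0.858 (limma-trend, Benjamini-Hochberg). This separation depended on the median-of-ratios factors. Without them the groups overlapped, and control ASO replicate 4 was the lowest of all livers. *Slc35d1*, which carries UDP-glucuronic acid into the endoplasmic reticulum, had a log2 fold change of 0.49 (SE 0.23, unadjusted p = 0.0490, limma-trend).

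Several of the 45 genes are also expressed by cells other than hepatocytes, and marker genes of these cells were compared between the groups. Of 10 stellate cell markers 1 was higher in apoC-III ASO livers and 9 were lower, with summed levels of 247 to 356 against 310 to 521, and control ASO replicate 4 was the highest. These sums depend on the median-of-ratios factors. Without them the stellate sum of control ASO replicate 4 was the lowest of all livers, and the highest belonged to an apoC-III ASO liver. Of 10 sinusoidal endothelial markers 7 were higher and 3 lower, with sums of 190 to 462 against 231 to 366. Of 8 tested Kupffer cell markers 5 were higher and 3 lower, and of 10 hepatocyte markers 2 were higher and 8 lower. Of 3 tested cholangiocyte markers 1 was higher, of 2 lymphocyte markers 0 and of 4 erythroid markers 1. At an unadjusted p under 0.05 (limma-trend) were 2 of the 10 stellate markers, beside 5.55% of all genes. These were *Lrat* (log2 fold change -0.89, SE 0.26) and *Dcn* (-0.57, SE 0.24). *Lrat* had 0.988 to 1.65 in apoC-III ASO and 2.32 to 5.35 in control ASO livers, without overlap, as had 1.83% of all genes. Of the hepatocyte markers *Serpina1c* (-0.82, SE 0.31) was under 0.05, and of the other cell types none was. No marker was called by limma-trend, none was at 0 in all livers, and the part of these cells in the values of the 45 genes was not tested.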

How the data were processed

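Liver RNA depleted of ribosomal RNA had been sequenced as stranded single-end libraries. The authors deposited TPM per gene, and the submitters' processing notes name kallisto 0.43.1 and GRCm38, whereas the methods of the study describe STAR, featureCounts and DESeq2, whose counts were not used here. Depth per liver is unknown. Of the 51912 identifiers, 51719 matched GENCODE M21 (GRCm38), and the 21857 genes that are nuclear and protein-coding were scaled to sum to 1000000 in each liver, then divided by median-of-ratios factors. The deposited columns all belonged to a mapped liver, and no 2 livers held identical values (highest correlation 0.946).

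The 5 apoC-III ASO and 4 control ASO livers were compared with limma-trend (limma 3.58.1, R 4.3.3) on log2(value + 1) for genes with a mean of at least 1, without covariates. Single values and isoenzyme ratios were tested with exact permutation tests in Python 3.11.15 (scipy 1.17.1 and numpy 2.4.6). Tables and plots used pandas 2.3.3 and matplotlib 3.10.9. Words of 31 bases shared between genes were counted in the GENCODE transcripts. Scripts were tested on simulated data.

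The 45 genes, the further lists, the markers and the tests were chosen with earlier results of these data known. Values in every liver are given for the highest member of each family, for genes at an unadjusted p under 0.05, for *Ndst1*, and for the 3 largest changes, and those of *Sdc2* were added after their values were seen. From the further lists up to 3 genes with the smallest p are named. Alternatives were TPM as deposited, TPM with median-of-ratios scaling, no factors, quantile normalization, pseudocounts of 0.1 and 0.5, minimum means of 0.1 and 5 or none, eBayes without trend or robust, array weights, a replicate block, other thresholds, and each liver left out. Leaving out the 2 livers with the highest erythroid level was added after seeing the data.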

Additional observations from a re-analysis of the deposited data

Results flagged for a closer look

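Values far from the others of their group were looked for in the 30 tested genes with Dixon's test at the 95% level, in 60 groups of 4 or 5 livers, of which chance flags about 1 in 20. It marked 5, and 4 of these were control ASO replicate 4, the liver with the lowest protein-coding share of TPM. In that liver *Ext2* was at 6.70 rescaled TPM, against 15.7 to 17.1 in the other control livers. *Gpc6* was at 0.209 there, against 2.01 to 2.27. *Gpc1* was at 3.64, against 0.354 to 0.737, and *Gpc4* was at 35.2, against 29.2 to 30.1. Without the median-of-ratios factors that liver was instead the lowest control liver for *Gpc4*, so this mark depends on the scaling. The other marked value was *Sulf2* in control ASO replicate 1, at 7.99 against 3.15 to 3.58.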

How the results depend on the processing

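None of the 30 heparan sulfate genes was called higher or lower in any alternative, and no isoenzyme ratio differed between the groups in any. The following genes kept the sign of their log2 fold change in all alternatives run, but not its size. With each liver left out it ran from -0.81 to -0.39 for *Papss2*, 0.0519 to 0.41 for *Ndst1*, 0.13 to 0.52 for *Ndst2*, 0.0305 to 0.17 for *Sdc4*, 0.0984 to 0.35 for *Ugdh*, 0.0799 to 0.50 for *Xylt2* and 0.0319 to 0.25 for *Slc35b3*. The smallest size came without control ASO replicate 1 (*Papss2*), 4 (*Ndst1*, *Ndst2*), 2 (*Sdc4*, *Xylt2*) or 3 (*Ugdh*), or apoC-III ASO replicate 1 (*Slc35b3*). Depth is unknown, and 15 of the 45 genes were under a mean of 1 and not tested. The number of isoenzyme pairs past the threshold, 38 of 43, was 18 of 22 with both members at a mean of at least 1. It was 12 of 12 in TPM as deposited, where fewer genes reached the minimum and most pairs entered through their higher member alone. It was 38 with each liver left out and 0 in control ASO or apoC-III ASO livers alone, where the smallest exact p (0.125 and 0.0625) cannot pass.

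Over all genes, TPM as deposited gave 5 called higher and 6 lower but not *Apoc3*, so its lack of heparan sulfate calls says little. TPM with median-of-ratios scaling gave 1 and 1. The number called lower was 1 without factors, without a filter, with a minimum mean of 0.1 and with eBayes without a trend, and 3 with array weights. With each liver left out it was 1 to 3, and 0 to 1 genes were called higher. *Anpep* was called in 2 of these 9 fits, without control ASO replicate 2 or 4. The median log2 fold change of the tested heparan sulfate genes was -0.0848 in TPM with median-of-ratios scaling (7 genes) and 0.35 without factors, and -0.0821 (without control ASO replicate 4) to 0.12 (without control ASO replicate 1) with each liver left out. Without factors the log2 fold change was 0.35 for *Col18a1*, 0.31 for *Gpc4*, 0.0724 for *Hs3st3b1*, 0.0712 for *Hs6st1* and 0.28 for *Sulf2*, all below the median of all genes there, 0.41. In TPM as deposited, where that median was 0.11, it was 0.18 for *Col18a1* and 0.0327 for *Gpc4*, and quantile normalization gave 0.0403 for *Col18a1*. Array weights gave 0.13 for *Hs6st1*. Without the 2 livers of highest erythroid level the values were 0.11 for *Col18a1*, -0.0189 for *Ext1* and 0.0701 for *Hs6st1*. With each liver left out they were -0.20 to -0.0714 for *Gpc4* and -0.51 to -0.20 for *Hs3st3b1*, and they ran from -0.33 to 0.0999 for *Col18a1*, -0.0748 to 0.75 for *Ext1*, -0.10 to 0.37 for *Ext2*, -1.03 to 0.0801 for *Hs6st1* and -0.29 to 0.19 for *Sulf2*. The causes of these changes were not tested.

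The groups share replicate numbers 1 to 4, but deviations of same-numbered livers correlated at 0.0672, 0.119, 0.0276 and 0.190, not all above 0.1. ApoC-III ASO replicates 1, 2 and 3 correlated more with a control liver of another number, so the livers were not taken as paired. With a replicate block 1 gene was called higher and 2 lower over all genes (*Apoc3*, *C1s2* and *Mapk15*, without *Anpep*), 0 of the heparan sulfate genes was called, and *Hs6st1* was at 0.0744. With pairing 0 isoenzyme ratios passed, and an exact sign-flip test of 4 pairs cannot go below p = 0.125.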
